A study of Mus musculus with 2 samples.

Results

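Natural killer (NK) cells without CD3 transcripts made up 252 of the 19999 filtered cells in this single-cell RNA sequencing of CD45+ cells from mouse liver metastases, with 131 of 9814 cells in the Ctrl library and 121 of 10185 in the KD library. Members were selected on measured values. A cell needed at least 1 UMI (unique molecular identifier, the count of one captured RNA molecule) of at least 2 of 6 NK genes, which were Ncr1, Klrb1c, Klra4, Klra7, Klra8 and Eomes. It also had to hold 0 UMIs of the CD3 chains Cd3d, Cd3e and Cd3g, of the B cell gene Cd79a and of the macrophage gene Csf1r. Before that rule, cells with fewer than 200 genes, over 10% mitochondrial UMIs, over 30000 UMIs or over 6000 genes had been removed from the 21359 deposited barcodes.

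Young C57BL/6 mice had received MC38-LM3b cells, a liver-metastatic derivative of the MC38 mouse colon carcinoma line, by injection into the spleen, and the liver lesions were collected at the same later time in both groups. The tumour cells of the Ctrl group carried a scrambled hairpin (shScramble). Those of the KD group carried a hairpin against SLAMF3 (shSLAMF3), a self-binding receptor of the SLAM family that is encoded by Ly9. The NK cells belonged to the host, which was otherwise wild type in both groups and did not carry the hairpin. Each group had 1 library, made from pooled lesions of 3 mice, and CD45+ cells were taken with a positive selection kit. With 1 library per group no difference could be tested, and the intervals given with the values (95%) cover the counting of molecules or cells, not the spread between mice. Genes and cells are not replicates, and a difference between Ctrl and KD describes these 2 libraries.

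NK cells are lymphocytes that kill without a rearranged antigen receptor. They read the balance between activating receptors, such as NKp46 (Ncr1), NKG2D (Klrk1) and DNAM-1 (Cd226), and inhibitory receptors for MHC class I, which in mice are the Ly49 family (the Klra genes) and the pairing of CD94 with NKG2A (Klrd1 with Klrc1). Killing runs through perforin and granzymes, and NK cells also secrete interferon-gamma and CCL chemokines. The liver holds both circulating NK cells, which depend on Eomes and carry Ly49 receptors, and type 1 innate lymphoid cells (ILC1), which stay in the tissue and carry CD49a (Itga1), CXCR6, TRAIL (Tnfsf10), CD200R1 and the interleukin-7 receptor, often without Eomes.

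The members held 573732 UMIs in Ctrl and 620384 in KD, with a median of 3614 and 4148 UMIs per cell, against 5412 and 4989 over all filtered cells. Their median mitochondrial share was 1.80% in Ctrl and 2.21% in KD. The libraries shared 27 barcodes, none of which was a member. The score of Scrublet, used only as an alternative, placed 6 Ctrl and 11 KD members among the likely doublets.

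The genes of the rule were found in the members and in CD3+ cells with NK genes, which are cells that met the rule for NK genes but held at least 1 CD3 UMI (117 in Ctrl, 153 in KD). Levels are CPM, the UMIs of a gene scaled to 1000000 UMIs of its class. Ncr1, the NKp46 receptor, stood at 329 CPM in Ctrl members and 543 CPM in KD members, against 0.0912 and 0.367 CPM in CD8 T cells. Eomes, a T-box factor of NK cells and of some CD8 T cells, stood at 310 and 163 CPM in the members and at 128 and 108 CPM in CD8 T cells. These values follow from the rule and are given as a description.

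**Figure D1:**
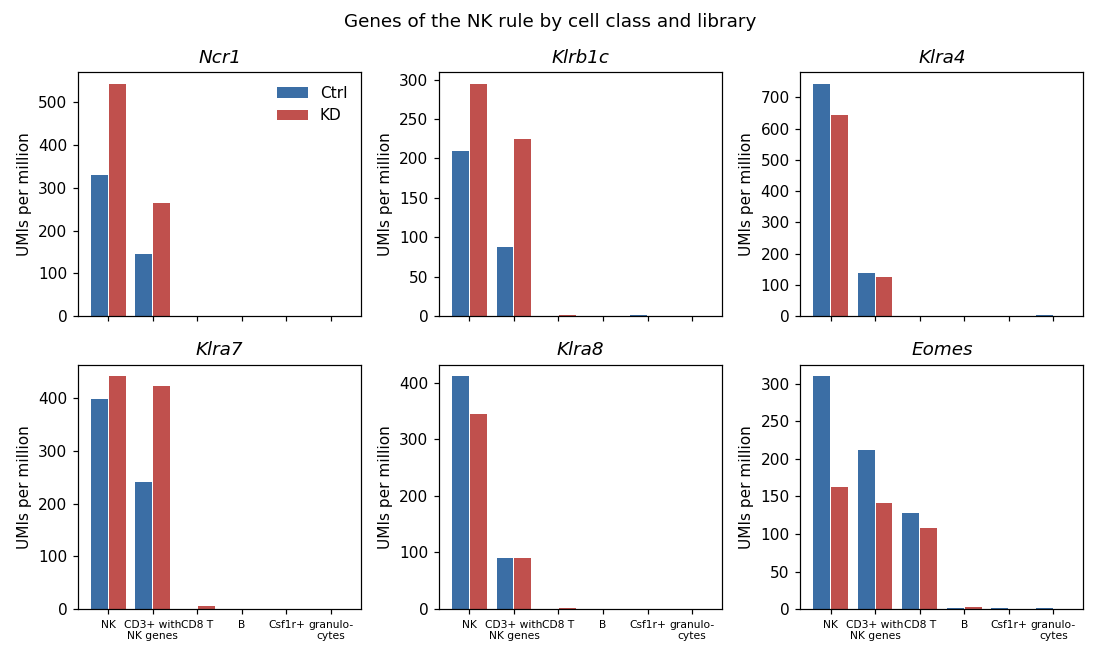
Level of the 6 rule genes, in CPM, in NK cells and 5 other classes (horizontal axis) of the Ctrl and KD libraries; bars are sums over all cells of a class. Ncr1, Klrb1c and the Klra genes are near 0 outside the NK cells and the CD3+ cells with NK genes, while Eomes is also found in CD8 T cells.

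Among genes that the rule did not use, Klre1, an NK receptor of the lectin type, was found in 114 of 131 Ctrl members and 109 of 121 KD members. Tyrobp, the adaptor DAP12, was found in 111 and 112 members. Trac, the constant part of the T cell receptor alpha chain, had 11 UMIs in Ctrl and 4 in KD, and Cd8a had 1 and 0. Trbc1, a constant segment of the beta chain that NK cells are known to transcribe without a rearranged receptor, had 135 and 124 UMIs, and Trbc2 77 and 100. Over the T cell list, without the CD3 chains, 11 of 12 genes in Ctrl and 8 of 12 in KD had UMIs, with 262 and 279 in all, against 4135 and 3963 CPM in CD8 T cells and 457 and 450 CPM in members. Trdc, the constant delta segment, had 21 UMIs in each library. Of the 10 genes listed for ILC2 and ILC3, a single gene had a UMI in either library, 1 UMI in each, and mast cell, hepatocyte and erythroid or platelet lists were at 1 to 53 UMIs. The members thus carried NK markers, with T cell receptor constant segments but few other T cell markers, and 108 Ctrl and 103 KD members had 0 UMIs of Trac, Trdc, Cd5 and Cd6. The rule does not separate NK cells from ILC1. Of the 25 NK core genes, 22 had at least 50 UMIs, with 1 of these, Klrc1, at least 2-fold higher in KD and 0 at least 2-fold lower.

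At the limit of the rule, members with exactly 2 NK genes numbered 39 in Ctrl and 48 in KD. The 25 NK core genes, a list of NK receptors, adaptors and granule genes, summed to 9230 CPM in Ctrl and 14330 CPM in KD in these cells. In cells just outside, with 1 NK gene and no CD3, they summed to 1355 and 2442 CPM. Some of the genes are also used by myeloid cells, and cells with 0 NK genes and no CD3 held 4772 and 4005 CPM. Cells with at least 2 NK genes and exactly 1 CD3 UMI, also outside, numbered 24 and 20 and held 15815 and 20180 CPM of the same genes.

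NK cells took 1.33% (1.12 to 1.58) of the filtered Ctrl cells and 1.19% (0.987 to 1.42) of the filtered KD cells. The difference of -0.147 percentage points had a counting interval of -0.466 to 0.170, which held 0. Granulocytes, by contrast, numbered 408 in Ctrl and 1792 in KD, and without them in the denominator the NK shares were 1.39% and 1.44%. Among NK, T and B cells only, NK cells took 3.29% (2.76 to 3.90) in Ctrl and 3.94% (3.28 to 4.69) in KD. Under a stricter rule, with 0 UMIs of the C1q genes, Lyz2, S100a8 and S100a9, 48 Ctrl and 28 KD members remained, and their shares of 0.489% and 0.275% differed by -0.214 points (-0.398 to -0.0370). S100a8 and S100a9 transcripts were more frequent in KD members, in 42 and 52 cells against 8 and 13 in Ctrl, and their part in this difference was not tested. The share of NK cells depends on the sort and on the other classes.

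A few members carried the RNA of another cell type beside their NK transcripts. They were defined, after the values had been seen, as cells with at least 10 UMIs of any of 7 marker lists (macrophages, neutrophils, dendritic cells, B cells, endothelial cells, tumour and fibroblasts, erythroid cells and platelets). There were 10 such mixed cells in Ctrl and 13 in KD. Neutrophil markers summed to 165 UMIs in Ctrl members and 2305 in KD members, with up to 539 UMIs in 1 cell, and 9 KD members held at least 10. S100a8, a neutrophil calcium-binding protein, had 8 UMIs in Ctrl and 668 in KD, of which the mixed cells held 94.8%.

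In Ctrl, 4 members held at least 5 UMIs of the epithelial keratins Krt8, Krt18 and Krt19, and 1 did so in KD. Mixed cells held all 158 Ctrl UMIs of the small heat shock gene Cryab, all 85 of the growth factor gene Areg, 99% of Mt2 and 97.4% of Ccl2. These genes would otherwise lead the list of genes lower in KD. Of Gzma, the granzyme A gene, mixed cells held 6.73% in Ctrl and 9.08% in KD. Each result below was also computed without the mixed cells, which left 121 Ctrl and 108 KD members.

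**Figure D2:**
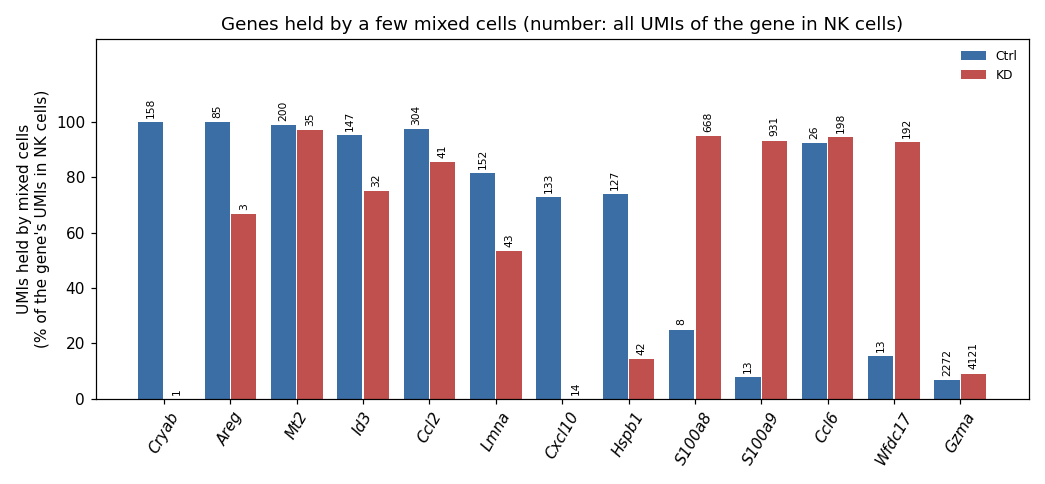
Percent of the UMIs of each gene in NK cells (vertical axis) that the mixed cells of the Ctrl and KD libraries held; the number on each bar is the UMI count of the gene over all members. In Ctrl all UMIs of Cryab and Areg came from mixed cells, in KD most of S100a8, S100a9, Ccl6 and Wfdc17, and for Gzma the share was below 10% in both.

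Over the 4001 genes with at least 50 UMIs in the members of both libraries together, 81 genes (2.02%) were at least 2-fold higher in KD and 96 genes (2.4%) at least 2-fold lower, with a median log2 ratio of KD over Ctrl of -0.06. Without the mixed cells, 42 of 3245 genes (1.29%) were at least 2-fold higher and 77 (2.37%) at least 2-fold lower. These shares are the background for the lists below, in which "called" means past 2-fold. The filter used UMIs summed over both libraries, so a gene high in 1 library could pass through that library alone. All list counts and medians below are partly set by this filter and describe the lists without supporting a difference. At a limit of 10 UMIs, 602 (6.65%) and 595 (6.57%) of 9058 genes were called.

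Several tissue residency and ILC1 genes stood higher in KD. Of its 14 genes, 7 had at least 50 UMIs, and 4 of these were called higher in KD and 0 lower, with a median log2 ratio of 1.15. At a limit of 10 UMIs, 8 of 12 genes were called higher and 0 lower, and without mixed cells 7 of 12. At 50 UMIs without mixed cells the count was 2 of 6, with a median of 0.80. The filter used the sum of both libraries, so Itga1 and Il7r passed 50 UMIs, and Cxcr6 and Tmem176a passed 10 UMIs, only through KD, where they were higher. These counts and medians are therefore partly set by the filter, and they describe the list without supporting a difference. Among members with at least 3 NK genes the median was 0.20, and in thinned members it was -0.05, each over the genes that still had 50 UMIs. Zfp683 and Itgae had at most 3 UMIs in either library.

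Itga1, the alpha chain of the collagen-binding integrin CD49a that marks ILC1, had 7 UMIs in 7 of 131 Ctrl members and 49 UMIs in 27 of 121 KD members. This gave 12.2 and 79.0 CPM and a log2 ratio of 2.69 (1.54 to 4.08), and 2.79 without mixed cells. No cell held more than 9 of the KD UMIs. To compare shares of cells at equal depth, each member was thinned to 1500 UMIs, and the 9 Ctrl cells and 1 KD cell with fewer were left out. Itga1 was then found in 2.46% of Ctrl and 10.8% of KD members, a difference of 8.4 points (1.7 to 15.6). B cells thinned in the same way, which should lack the gene, had it in 0% and 1.21% of cells at median depths of 2694 and 2724 UMIs before thinning. Csf1r+ cells had it in 0.90% and 1.86% at 7351 and 8612 UMIs, so the share in KD members lay above that of both classes.

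Cxcr6, the receptor for CXCL16 that keeps lymphocytes in liver sinusoids, had 0 UMIs in Ctrl members and 23 UMIs in 13 KD members. Against a floor of 3 UMIs for the Ctrl library this was at least 7.09-fold higher. After thinning, 0% and 3.33% of members had it, a difference of 3.33 points (-0.503 to 8.31) that did not exceed counting error. Tnfsf10, the death ligand TRAIL, had 6 UMIs in 6 Ctrl members and 29 UMIs in 24 KD members, with a log2 ratio of 2.16 (0.87 to 3.72). Cd200r1, an inhibitory receptor of ILC1, had 7 UMIs in 2 cells and 29 UMIs in 15 cells, with a log2 ratio of 1.94 (0.72 to 3.37). Thinned shares of Tnfsf10 differed by 5.87 points (-0.369 to 12.6) and those of Cd200r1 by 5.03 points (-0.568 to 11.2), and both intervals held 0.

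Il7r, the interleukin-7 receptor alpha chain, had 12 UMIs in 6 Ctrl members and 54 UMIs in 20 KD members, with a log2 ratio of 2.06 (1.14 to 3.10). Inpp4b, a phosphoinositide phosphatase, had 30 UMIs in 16 cells and 100 UMIs in 33 cells, with a log2 ratio of 1.62 (1.02 to 2.26). Rora, a nuclear receptor of innate lymphoid cells, had 31 and 75 UMIs in 21 and 25 cells, with a log2 ratio of 1.16 (0.54 to 1.82) that was 0.88 without mixed cells and -1.05 among members with at least 3 NK genes. Rgs1, which damps chemokine receptor signals, had a log2 ratio of 0.73 (0.48 to 0.98). The remaining abundant genes of the list differed little: Cd69 had 129 and 125 UMIs and Ctla2a 466 and 536 UMIs, with log2 ratios of -0.16 and 0.09. Tmem176b, a less abundant gene of the list that was not called, had log2 ratios from -0.04 to 1.31 over 14 alternative settings.

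**Figure D3:**
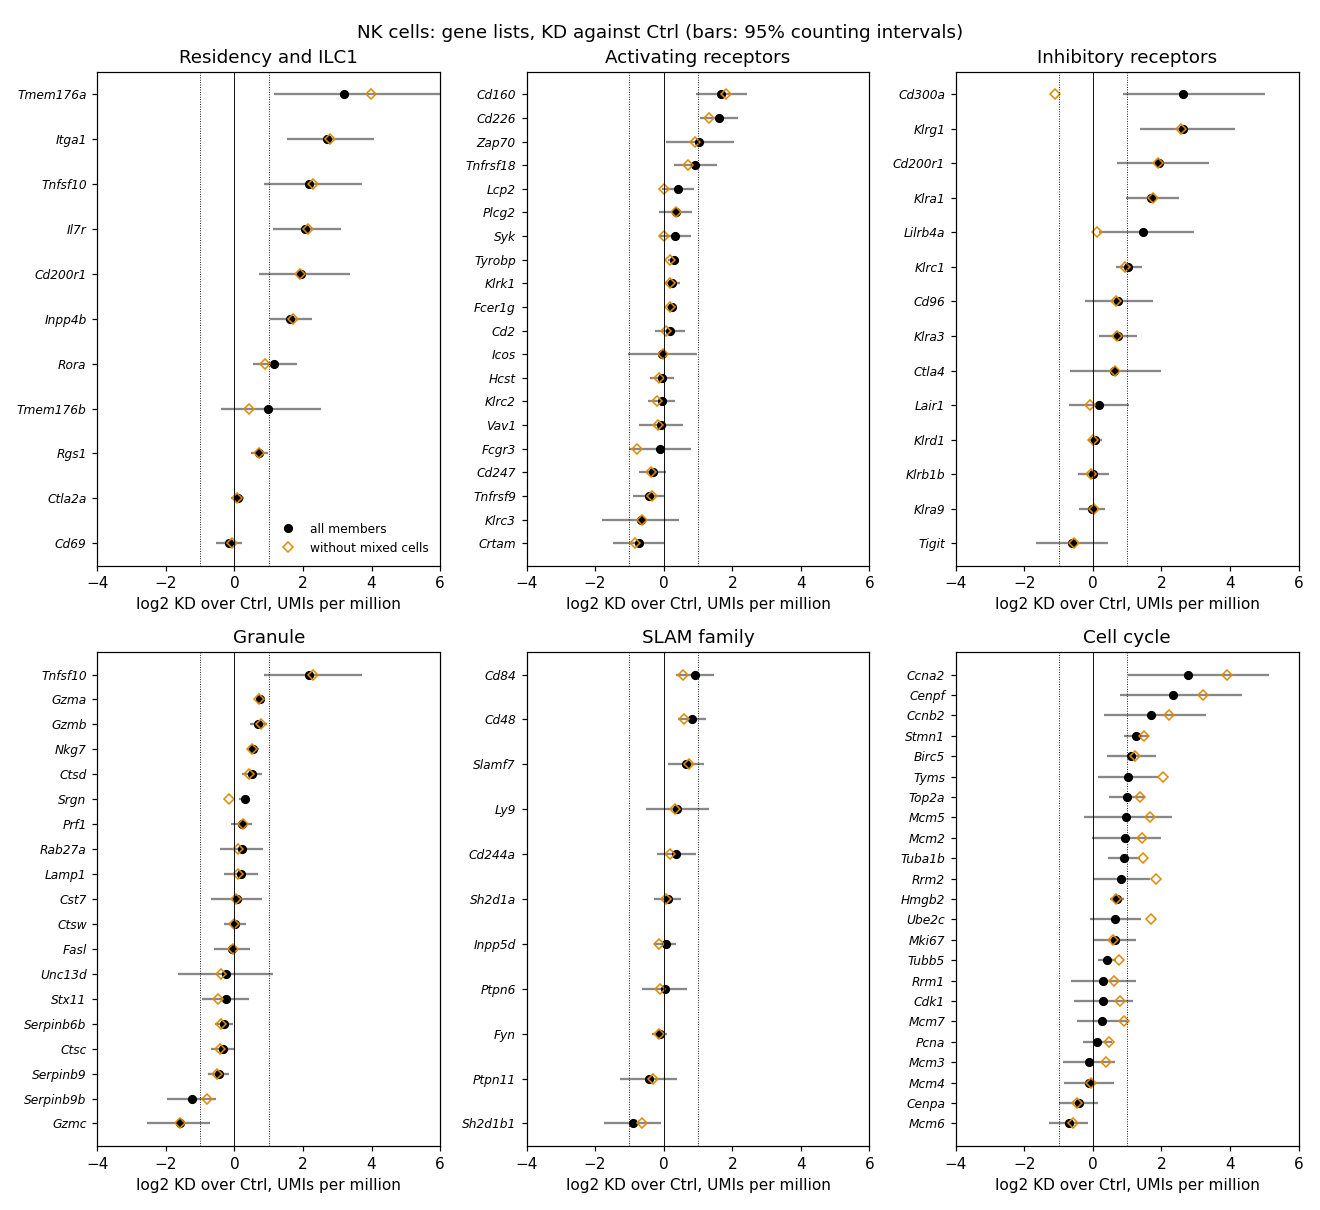
Log2 ratio of KD over Ctrl, from CPM in NK cells, for the genes of 6 lists with at least 20 UMIs over both libraries and at least 1 in each; black points are all members with 95% counting intervals, open diamonds leave out mixed cells, and dotted lines mark 2-fold. Residency and ILC1 genes lie mostly to the right of the 2-fold line, from Rora at 1.16 to Tmem176a at 3.21, but Cd69, Ctla2a and Rgs1 do not reach it. Itga1, Tnfsf10, Cd200r1 and Tmem176a passed the limit of 20 UMIs only through KD, where they were higher, so the limit partly sets this picture. Tmem176a was found in 2 Ctrl and 13 KD members. Granule genes scatter around 0, from Gzmc at -1.60 to Tnfsf10 at 2.16.

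Promoters of 3 genes of this list are shown because these genes stood higher in KD. The RefSeq promoter table (GRCm38.p6, a different build from the GRCm39 named in the submitters' notes, and so used here for sequence only) held 9 of the 14 genes, with 13 start sites. The 250 bases before each start were searched on both strands for TCACAC (a T-box core, as T-bet and Eomes read), TGTGGT (RUNX) and TGANTCA (AP-1). Of the 13 windows, 4 held TCACAC, 1 held TGTGGT and 2 overlapping windows of Ctla2a held TGANTCA. The windows of Tmem176a and Tmem176b face each other and share 1 TCACAC site, so 3 sites were distinct. Over the table, 12.3%, 14.1% and 6.75% of 32851 promoters held the 3 motifs. A match describes letters, not a bound site. The sequences run 5′ to 3′ on the gene's strand and end at the base before the start site, with motif matches in capitals. Itga1 lies at chr13:115101965-115102214 on the minus strand and holds none of the motifs, Cxcr6 at chr9:123806227-123806476 on the plus strand holds a RUNX match 10 bases before the start, and Il7r at chr15:9529877-9530126 on the minus strand holds a T-box match 108 bases before it.
Itga1: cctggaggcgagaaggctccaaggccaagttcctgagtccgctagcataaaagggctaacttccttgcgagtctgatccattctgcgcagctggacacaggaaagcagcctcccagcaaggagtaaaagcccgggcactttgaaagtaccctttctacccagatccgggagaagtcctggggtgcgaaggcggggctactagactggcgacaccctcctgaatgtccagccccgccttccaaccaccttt
Cxcr6: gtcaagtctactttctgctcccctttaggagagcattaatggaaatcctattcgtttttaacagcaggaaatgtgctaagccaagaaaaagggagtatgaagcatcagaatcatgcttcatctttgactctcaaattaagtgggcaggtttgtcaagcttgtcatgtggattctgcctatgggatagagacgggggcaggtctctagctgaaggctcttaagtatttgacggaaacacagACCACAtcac
Il7r: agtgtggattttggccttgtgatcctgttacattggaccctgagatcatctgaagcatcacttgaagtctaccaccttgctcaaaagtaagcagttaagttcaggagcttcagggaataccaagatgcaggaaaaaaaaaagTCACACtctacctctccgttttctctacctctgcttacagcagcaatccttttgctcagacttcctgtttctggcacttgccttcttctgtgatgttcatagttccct

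A subset of the residency genes was held by part of the KD members. Cd69, Rgs1 and Ctla2a, the most abundant genes of the list, were left out, a choice made after the values were seen. None of them was called higher in KD, so the choice favours a larger contrast. The other 11 genes of the list were summed per cell at 1500 UMIs. At least 2 UMIs of them were found in 4 of 122 Ctrl members, 3.28% (0.900 to 8.18), and in 26 of 120 KD members, 21.7% (14.7 to 30.1). Near this limit, 12 Ctrl and 19 KD members held exactly 1 such UMI and 1 and 10 held exactly 2, so the class is a range and not a cell type. With the full list of 14 genes the shares were 54.9% and 70.0%. Without mixed cells 4 of 112 and 22 of 107 members passed for the 11 genes.

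The same cells were split by Ly49 and by Eomes transcripts, which the rule for members used, so the shares that follow are a description and support no link between these genes. Of the KD members without a UMI of Klra4, Klra7 and Klra8, 22 of 51 passed, 43.1% (29.3 to 57.8), and of those with such a UMI 4 of 69, 5.80% (1.60 to 14.2). In Ctrl the counts were 3 of 37 and 1 of 85. Split by Eomes, 24 of 95 KD members without an Eomes UMI passed and 2 of 25 with one. In Ctrl 4 of 76 and 0 of 46 passed. A member without any UMI of these Klra genes before thinning had to hold at least 2 of Ncr1, Klrb1c and Eomes, and a missing UMI at this depth does not show that a gene is silent.

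**Figure D4:**
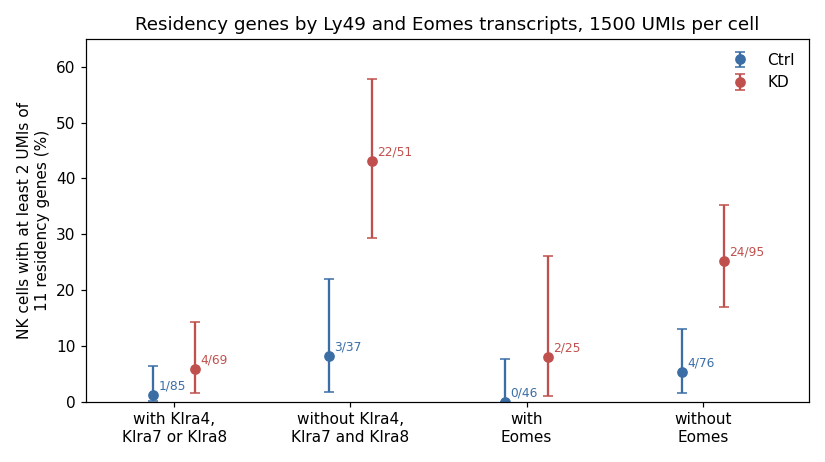
Percent of NK cells with at least 2 UMIs of 11 residency genes at 1500 UMIs per cell (vertical axis), split by UMIs of the Ly49 genes Klra4, Klra7 and Klra8 and of Eomes (horizontal axis), for Ctrl and KD; bars are exact 95% intervals for counting error and labels give cells. KD members without the Ly49 genes stand highest at 22 of 51, against 3 of 37 in Ctrl.

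The rule genes themselves are given as a description. Eomes had 178 UMIs in 84 Ctrl members and 101 UMIs in 53 KD members. Ncr1 had 189 UMIs in 83 and 337 UMIs in 103 members, and Klrb1c, the NK1.1 antigen, 120 UMIs in 69 and 183 UMIs in 94. Klra4 (Ly49D, an activating member of its family) was found in 75 of 131 Ctrl members but in 44 of 121 KD members, at similar sums of 427 and 399 UMIs, so fewer KD cells held more of it each. Klra7 (Ly49G) had 229 and 274 UMIs and Klra8 (Ly49H) 236 and 214. After thinning, 69.7% (60.7 to 77.7) of Ctrl and 57.5% (48.1 to 66.5) of KD members held any of these 3 Klra genes, and the difference of -12.2 points (-24.5 to 0.520) did not exceed counting error. Klra genes are near-identical copies of one another, and reads could be split or lost among them in counting.

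The list of inhibitory receptors had 6 of 22 genes with at least 50 UMIs, of which 2 were called higher in KD and 0 lower, with a median log2 ratio of 0.39. Of these 2, Klra1 passed 50 UMIs only through KD, where it was higher. The count and median are therefore partly set by the filter and support no difference. Klrc1, which encodes NKG2A, had 87 UMIs in 41 Ctrl members and 193 UMIs in 56 KD members, with a log2 ratio of 1.04 (0.66 to 1.42) and 0.93 without mixed cells. After thinning it was found in 14.8% of Ctrl and 31.7% of KD members, a difference of 16.9 points (5.8 to 27.7), but at 1000 UMIs the difference was 7.34 points (-2.63 to 17.3), which held 0. Its partner Klrd1 (CD94) had 406 and 457 UMIs and a log2 ratio of 0.06 (-0.14 to 0.25). NKG2A and CD94 transcripts, which form 1 receptor, therefore did not differ to the same extent.

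Klra1 (Ly49A) had 19 UMIs in 10 Ctrl members and 67 UMIs in 13 KD members, up to 19 in 1 cell, with a log2 ratio of 1.71 (0.95 to 2.52). Klra3 (Ly49C) had 45 and 80 UMIs, with a log2 ratio of 0.72 (0.17 to 1.28), and Klra9 (Ly49I) 114 and 122 UMIs, with one of -0.01 (-0.40 to 0.37). Klrg1, an inhibitory receptor of mature NK cells and of some ILC1, had 6 UMIs in 5 Ctrl members and 40 UMIs in 24 KD members, with a log2 ratio of 2.62 (1.38 to 4.15). After thinning Klrg1 was found in 4.10% and 8.33% of members, a difference of 4.23 points (-2.50 to 11.3) within counting error. The checkpoint receptor genes Pdcd1, Lag3 and Havcr2 had few UMIs in the NK cells of both libraries. Pdcd1 (PD-1) had 0 and 2 UMIs, Lag3 4 and 3, and Havcr2 (TIM-3) 7 and 12, while Pdcd1 stood at 253 and 203 CPM in CD8 T cells.

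Of the activating receptors and adaptors, 16 of 20 genes were measured at 50 UMIs, 2 were called higher in KD and 0 lower, and the median log2 ratio was 0.24. Of these 2, Cd160 passed 50 UMIs only through KD, so the filter partly sets this count, which supports no difference. Cd226 (DNAM-1, a receptor for CD155 on tumour cells) had 36 UMIs in 19 Ctrl members and 118 UMIs in 42 KD members, with a log2 ratio of 1.60 (1.05 to 2.18) and 1.33 without mixed cells. After thinning it was found in 8.20% and 23.3% of members, a difference of 15.1 points (5.5 to 24.7). Cd160, a receptor for HVEM and MHC class I, had 21 UMIs in 16 and 72 UMIs in 28 members, with a log2 ratio of 1.66 (0.95 to 2.44). Thinned, Cd160 was found in 9.84% and 10.8% of members, so its higher sum did not show as a larger share at equal depth. The receptors held by most members differed less. Klrk1 (NKG2D) had 286 and 368 UMIs, with a log2 ratio of 0.25 (0.02 to 0.48), and the adaptors Tyrobp and Fcer1g had log2 ratios of 0.29 and 0.23.

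Granule genes did not move as a group. Of 17 measured at 50 UMIs, 0 were called higher and 2 lower, and the median log2 ratio was 0.06. Gzma (granzyme A) had 2272 UMIs in 115 of 131 Ctrl members and 4121 UMIs in 96 of 121 KD members, with a log2 ratio of 0.75 (0.67 to 0.82). It was found in no larger share of KD cells, and 1 KD member held 317 UMIs of it against at most 82 in any Ctrl member. Gzmb (granzyme B) had 238 and 418 UMIs in 71 and 74 members, with 94 in 1 KD cell, and a log2 ratio of 0.70 (0.47 to 0.94). For both granzymes the KD library thus held more UMIs in a like number of cells.

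Nkg7, a protein of the granule membrane needed for degranulation, had 595 and 943 UMIs, with a log2 ratio of 0.55 (0.40 to 0.70). Perforin (Prf1) had 163 and 204 UMIs in 74 and 77 members, with a log2 ratio of 0.21 (-0.09 to 0.52) whose interval held 0. The 2 granule genes called lower were Serpinb9b, of the serpin family that includes a granzyme B inhibitor, and the granzyme gene Gzmc. Serpinb9b had 57 and 26 UMIs, with a log2 ratio of -1.25 (-1.97 to -0.55), and -0.79 without mixed cells. Gzmc had 42 and 15 UMIs, of which 1 Ctrl cell held 37, so that its ratio rests on that cell. Gzmk, found in few NK cells, had 1 UMI in Ctrl and 15 in 8 KD members, a log2 ratio of 3.79 (1.09 to 9.19).

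Among cytokines and chemokines, 9 of 18 genes were measured at 50 UMIs, with 0 called higher and 2 lower. Both genes called lower, Vegfa and Areg, passed 50 UMIs only through Ctrl, where they were higher, so the filter partly sets this count. Ccl4, a chemokine that draws other leukocytes, had 418 UMIs in 61 Ctrl members and 841 UMIs in 80 KD members, up to 101 in 1 cell, with a log2 ratio of 0.90 (0.72 to 1.07). Thinned, 36.1% of Ctrl and 51.7% of KD members held it, a difference of 15.6 points (2.5 to 28.1), although Csf1r+ cells held it too, in 35.3% and 31.0%. Ifng had 119 UMIs in 41 and 229 UMIs in 53 members, with 44 in 1 KD cell, and a log2 ratio of 0.83 (0.51 to 1.16). Thinned, it was found in 23.0% and 24.2% of members, so the larger sum did not come with a larger share of cells. Xcl1, the chemokine that draws cross-presenting dendritic cells, had 564 and 592 UMIs and a log2 ratio of -0.04 (-0.21 to 0.13).

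The 2 genes called lower were of different kinds. Vegfa, the angiogenic growth factor, had 93 UMIs in 39 of 131 Ctrl members and 20 UMIs in 12 of 121 KD members, with a log2 ratio of -2.33 (-3.11 to -1.62) and -2.44 without mixed cells. No Ctrl cell held more than 12, and after thinning 14.8% of Ctrl and 3.33% of KD members had it, a difference of -11.4 points (-19.4 to -3.8). At 1000 UMIs the difference was -6.23 points (-12.9 to 0.0844), an interval that held 0. Vegfa was also found in 22.4% and 14.6% of thinned Csf1r+ cells, and in 0.649% and 2.08% of thinned B cells, and the part of free RNA was not tested. Areg had 85 UMIs in 5 Ctrl members, 61 of them in 1 cell, and 3 UMIs in KD, and no UMI remained in Ctrl without mixed cells. Tgfb1 had 109 and 62 UMIs, with a log2 ratio of -0.93 (-1.40 to -0.46).

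Of 23 transcription factors measured, 1 (Rora) was called higher and 0 lower, with a median log2 ratio of -0.37 against -0.06 over all genes. Tbx21 (T-bet), needed by NK cells and ILC1 alike, had 145 and 164 UMIs in 74 and 66 members, with a log2 ratio of 0.06 (-0.27 to 0.40). Irf8, a factor of NK cell expansion, had 535 and 312 UMIs, with a log2 ratio of -0.89 (-1.10 to -0.69). It was also lower in CD8 T cells, with -0.91 (-1.0 to -0.82).

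Myb, a factor of immature lymphocytes, had 88 and 49 UMIs, with a log2 ratio of -0.96 (-1.49 to -0.44), and Bach2, which holds lymphocytes in a less differentiated state, 382 and 252 UMIs, with -0.71 (-0.95 to -0.48). The orphan nuclear receptors Nr4a1, Nr4a2 and Nr4a3, which follow receptor signals, had log2 ratios of -0.83, -0.66 and -0.88. Id2, required by all innate lymphoid cells, had 356 and 501 UMIs, with 0.38 (0.18 to 0.58). None of these passed 2-fold.

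Genes of immature NK cells had a median log2 ratio of -0.44 over 8 genes, with Il7r as the 1 called higher. Emb had 296 and 215 UMIs and a log2 ratio of -0.57 (-0.83 to -0.32), Kit, the receptor for stem cell factor, 61 and 35 UMIs and -0.91 (-1.56 to -0.29), and Cd27 42 and 26 UMIs and -0.80 (-1.57 to -0.07). Genes of mature NK cells had a median of 0.43 over 8 genes with 0 called in either direction. Prdm1 (Blimp-1) had 27 and 49 UMIs, with 0.75 (0.04 to 1.48), and Zeb2 172 and 258 UMIs, with 0.47 (0.19 to 0.76). Itgam (CD11b), which defines the mature stage by surface staining, had 51 UMIs in each library. Irf8 and Gzma, described above, are also on this list, and Irf8 was lower in KD while Gzma was higher.

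**Figure D5:**
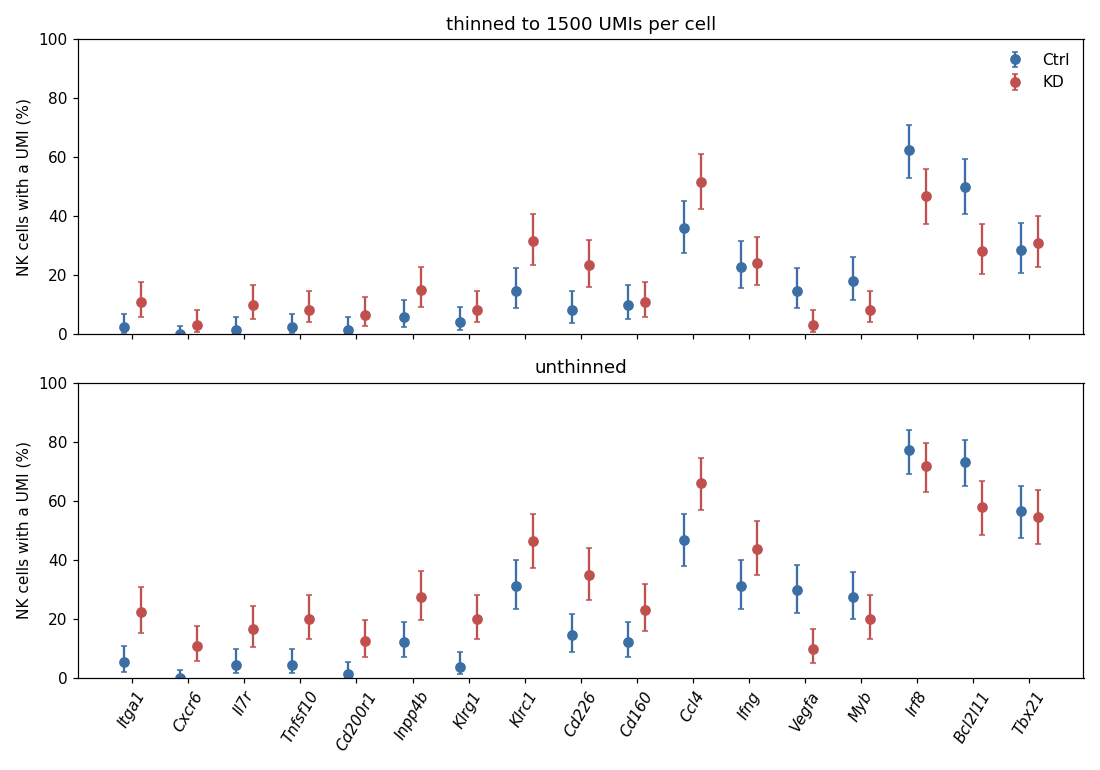
Percent of NK cells with at least 1 UMI of each gene (vertical axis) in Ctrl and KD, after thinning to 1500 UMIs per cell (top) and without thinning (bottom); points are shares and bars are exact 95% intervals for counting error. Itga1, Il7r, Klrc1 and Cd226 stand higher in KD and Vegfa and Bcl2l11 lower in both panels. Irf8 is at 62.3% and 46.7% in the top panel but at 77.1% and 71.9%, with intervals that overlap, in the bottom one.

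Among homing receptors, 13 were measured at 50 UMIs and none was called (0 higher, 0 lower). Cxcr4, the receptor for CXCL12, had 157 and 90 UMIs, with a log2 ratio of -0.92 (-1.31 to -0.53), while in CD8 T cells it was 1.17. Cxcr3, the receptor for interferon-induced chemokines, had 10 UMIs in 10 Ctrl members and 34 UMIs in 28 KD members, with a log2 ratio of 1.65 (0.60 to 2.84). Ccr2, a receptor for CCL2, had a log2 ratio of 0.18 (-0.13 to 0.50). Of 12 cytokine receptors, 1 (Il7r) was called higher, and Il2rb, the shared receptor chain for interleukin-2 and interleukin-15, had 561 and 513 UMIs, with -0.24 (-0.42 to -0.07).

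SLAM family genes are the part of the NK receptor set to which the targeted SLAMF3 belongs. Of 16 listed, 10 were measured at 50 UMIs, 0 were called in either direction, and the median log2 ratio was 0.09. Ly9 itself, which binds Ly9 on a neighbouring cell, had 19 UMIs in 18 Ctrl members and 27 UMIs in 25 KD members, with a log2 ratio of 0.39 (-0.51 to 1.32). Its level of 33.1 and 43.5 CPM in NK cells stood beside 22.9 and 29.1 CPM in CD8 T cells. Since the hairpin acted in tumour cells, these host counts do not check the knockdown.

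The SLAM receptors Cd48, Cd84 and Slamf7 had 79 and 151, 43 and 87, and 52 and 88 UMIs. Their log2 ratios were 0.82 (0.42 to 1.23), 0.90 (0.36 to 1.47) and 0.65 (0.14 to 1.17), and 0.59, 0.57 and 0.74 without mixed cells. Cd244a (2B4), the receptor for CD48, had 47 and 65 UMIs and 0.35 (-0.21 to 0.93). The adaptor Sh2d1a (SAP) had 102 and 120 UMIs and 0.12 (-0.27 to 0.52), and Sh2d1b1 (EAT-2) 36 and 21 UMIs and -0.89 (-1.74 to -0.07).

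Interferon-gamma response genes had a median log2 ratio of -0.12 over 14 genes, with 0 called higher and 3 lower. Gbp5, a guanylate-binding protein, had 40 and 20 UMIs, with a log2 ratio of -1.11 (-1.97 to -0.30) and -1.32 without mixed cells. Gbp2 had 64 and 29 UMIs, but 1 Ctrl cell held 36, and without mixed cells its log2 ratio was -0.21. Others such as Psmb8, with 0.09 (-0.16 to 0.34), and Ifi47, with 0.38 (-0.18 to 0.95), had intervals that held 0. Of the type I interferon genes, 5 were measured and 1, Bst2, was called lower, with 120 and 64 UMIs, which became a log2 ratio of -0.22 without mixed cells.

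Immediate early and heat shock genes, which also respond to tissue dissociation, had a median log2 ratio of -0.46 over 18 genes, with 0 called higher and 2 lower. Jun had 476 UMIs in 68 Ctrl members, 140 of them in 1 cell, and 193 UMIs in 65 KD members, with a log2 ratio of -1.42 (-1.66 to -1.17) and -1.02 without mixed cells. Egr1 had 70 and 35 UMIs, with -1.11, and -0.55 without mixed cells. Hspa1a and Hspa1b, inducible HSP70 genes, had log2 ratios of -0.49 (-0.64 to -0.34) and -0.57 (-0.68 to -0.46), and in CD8 T cells -1.21 and -1.23. In CD3+ cells with NK genes they were -0.12 and -0.15, and Jun was 0.21 there and -1.03 in CD8 T cells. Handling of the 2 libraries and the groups cannot be told apart.

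Of the glycolysis and hypoxia genes, 15 were measured, with 0 called higher and 1 (Vegfa) lower, and a median log2 ratio of -0.26. Hif1a, the oxygen-sensed factor, had 150 and 81 UMIs in 61 and 48 members, with -1.0 (-1.41 to -0.60). Among survival genes none of 10 was called. Bcl2l11 (BIM), which promotes cell death, had 293 UMIs in 96 Ctrl members and 163 UMIs in 70 KD members, with -0.96 (-1.24 to -0.68), and was found in 50% and 28.3% of thinned members, a difference of -21.7 points (-33.7 to -8.8). Bcl2, which opposes it, had 362 and 468 UMIs, with 0.26 (0.06 to 0.46).

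Of 17 cell cycle genes measured at 50 UMIs, 2 were called higher and 0 lower, with a median log2 ratio of 0.64. Stmn1 had 101 UMIs in 25 Ctrl members and 260 UMIs in 27 KD members, up to 68 in 1 cell, with a log2 ratio of 1.25 (0.91 to 1.60). Birc5 (survivin) had 25 UMIs in 9 and 58 UMIs in 11 members, with 1.10 (0.40 to 1.84), and Top2a 46 UMIs in 11 and 99 UMIs in 19 members, with 0.99 (0.47 to 1.53). At 1500 UMIs, 57.4% (48.1 to 66.3) of Ctrl and 46.7% (37.5 to 56.0) of KD members held at least 2 UMIs of the list. Single genes differed from this. Top2a was found in 3.28% and 11.7% of thinned members, a difference of 8.39 points (1.28 to 15.9), which was 4.29 points (-1.51 to 10.6) at 1000 UMIs. Stmn1 was found in 9.02% and 18.3%, a difference of 9.32 points (0.113 to 18.5), which was 3.65 points (-3.81 to 11.3) at 1000 UMIs. In CD3+ cells with NK genes the list had a median of -0.61, with 0 of 24 genes called higher and 4 lower. Without mixed cells, 4 of 11 genes were called higher in NK cells and 0 lower.

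Of 2013 genes that could be named by size alone (at least 100 UMIs, at least 0.2 times the level of the highest class, and no mitochondrial, ribosomal, receptor segment, sex-linked or unnamed genes), the 10 highest and 10 lowest log2 ratios were taken. Inpp4b, Cd226 and Stmn1, described above, were among the highest. Chn2, a Rac regulator, had 50 UMIs in 35 Ctrl members and 148 UMIs in 55 KD members, with a log2 ratio of 1.45 (0.98 to 1.95). Maf, a transcription factor of several lymphocyte lineages, had 35 UMIs in 25 and 91 UMIs in 45 members, with 1.27 (0.69 to 1.87) and 0.95 without mixed cells. The histone genes H1f5 and H4c4 and the replication gene Pclaf, with 2.03, 1.87 and 1.22, belong to dividing cells. Ccl6, with 2.82, was 94.4% in mixed cells in KD, and Spp1, with 1.18, had 0.73 without them.

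At the other end, Cryab, Ccl2, Mt2, Id3, Lmna and Hspb1 were mostly in mixed cells in Ctrl, at 74.0% to 100% of their UMIs. Gramd3, a protein of membrane contact sites, had 125 UMIs in 44 Ctrl members and 37 UMIs in 23 KD members, with a log2 ratio of -1.87 (-2.44 to -1.33), and -2.25 without mixed cells. Kdm6b, a histone H3K27 demethylase, had 143 UMIs in 59 and 52 UMIs in 31 members, with -1.57 (-2.06 to -1.10). Bag3, a co-chaperone of the heat shock response, had 87 UMIs in 32 and 26 UMIs in 16 members, with -1.86 (-2.55 to -1.21), and -1.67 and -1.50 in the CD3+ cells with NK genes and in CD8 T cells. With Vegfa, these were the genes among the 10 lowest that were spread over many cells.

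Variation among the NK cells was described at equal depth. At 1500 UMIs the variance over the mean had a median of 1.12 in Ctrl and 1.11 in KD over the 2013 genes, where counting alone gives about 1. The highest was the ribosomal RNA gene Rn18s-rs5, with 19.4 and 24.3. Among effector genes it was 7.06 and 15.9 for Gzma, 9.89 and 9.86 for Ccl5, 9.43 and 9.08 for Ccl4, 4.44 and 6.33 for Xcl1 and 2.91 and 7.54 for Gzmb. The structural and nuclear genes Tmsb4x and Malat1 had 6.61 and 6.55, and 4.22 and 4.0. The heat shock genes Hspa1a and Hspa1b had 6.97 and 6.42, and 6.96 and 6.47. Klra4, with 3.29 and 3.78, was the 1 receptor gene among the 15 most variable genes. S100a6 had 14.0 and 7.21, at means of 1.86 and 1.98 UMIs per cell. Cd63, with 5.0 and 3.39, had means of 0.041 and 0.042 and was held by few cells.

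Set against CD8 T cells, the genes outside the rule with the highest ratio in both libraries were receptors and signalling genes of NK cells. Klra9 stood at 199 CPM in Ctrl members and 197 CPM in KD members against 0.182 and 1.34 CPM in CD8 T cells. Klrb1a, Klrb1b, Klrb1f and Klri2, lectin-like receptors, Itga2 (CD49b), Eya1, Clnk, Styk1 and Atp1b1 completed the 10. Against the CD3+ cells with NK genes the same measure gave Ccl2, Hspb1, Cryab, Mt2 and Cd63, which were mostly in mixed cells in Ctrl, and Vegfa, Anxa1, Klf12, Atf3 and Itga2. Itga2 had 157 and 139 CPM in members against 57.4 and 54.9 CPM.

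The same genes differed between Ctrl and KD in those CD3+ cells to varying extents. Itga1 had a log2 ratio of 2.60 (1.81 to 3.49) there, beside 2.69 in NK cells and 1.49 (1.15 to 1.84) in CD8 T cells. Cd226 had 1.36 (1.04 to 1.70), beside 1.60 in NK cells, and 0.17 (0.07 to 0.28) in CD8 T cells. Cxcr6 had -0.37 (-0.81 to 0.06) and -0.30 (-0.39 to -0.22), while it was found only in KD among NK cells. Gzma had 1.89 (1.79 to 1.99) and 2.89 (2.85 to 2.93), larger than the 0.75 in NK cells. In CD3+ cells with NK genes 2.27% of 5277 genes were called higher and 2.79% lower, and for the residency list 4 of 10 genes were called higher. In CD8 T cells 3.25% of 12247 genes were called higher and 1.19% lower, and 5 of 13 residency genes were called higher. By these counts, genes of the list were called higher in KD in all 3 classes. The filter on summed UMIs partly sets the counts, so they support no difference. A difference between the classes could not be tested.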

How the data were processed

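UMI counts per gene and barcode were used as deposited. The authors made them with Cell Ranger 7.1.0 from 10x 3′ v3.1 libraries, with GRCm39, Seurat 5.1.0 and R 4.4.1 named in the submitters' notes, and the counts were not normalized. Gene symbols and identifiers were those of the 56941 features in the files. The 2 libraries were grouped by the hairpin in the labels.

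Counts were summed over the members of each library. Genes were compared by the log2 ratio of CPM, with exact conditional binomial intervals. Counts of called genes and list medians used genes with at least 50 UMIs over both libraries, unless another limit is given. Ratios of single genes are also given below that limit. Rankings, calls and list medians used 0.5 CPM added. Sums have exact Poisson and shares exact Clopper-Pearson 95% intervals, and these were combined for differences of shares. For a count of 0, 3 counts per library were taken as the floor. Cells were thinned to 1500 UMIs for shares of cells. CD8 T cells held at least 2 CD3 UMIs and at least 1 of Cd8a or Cd8b1, no Cd4, Cd79a or Csf1r and fewer than 2 NK genes. B cells held at least 2 Cd79a UMIs and Csf1r+ cells at least 2 Csf1r UMIs, with 0 UMIs of the other lineage genes. Granulocytes held at least 10 UMIs of S100a8 and S100a9 and 1 of Csf3r.

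Members and gene lists were chosen with earlier results of these data known. Named genes were the rule genes, genes of the lists, the 10 highest and 10 lowest ratios, the 10 highest over each comparison class and the 15 most variable. Doublets were limited only by the UMI and gene limits. Scrublet (scanpy 1.11.5) scores, at 0.8% per 1000 cells, gave an alternative, as did TMM factors (edgeR 4.0.16), other rules, filters, thinning to 1000 UMIs and 5 CPM added. Another 4 alternatives (no mixed cells, no 3 deepest members, members with or without Eomes) were added after the data were seen. All intervals cover counting error only. The intervals and thinning were tested on simulated data. Some genes of the lists are not reported here.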

Additional observations from a re-analysis of the deposited data

Results flagged for a closer look

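Barcodes outside the cell filters also held cells that met the NK rule, which is signal in data that no comparison used. There were 8 among the 602 barcodes removed from the Ctrl library and 10 among the 758 removed from the KD library. The cells removed were not compared between the libraries. No group had enough samples to look for a library far from the others.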

How the results depend on the processing

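Of 1452 single gene ratios recomputed under the alternatives, 1158 kept their direction within the counting interval, 265 moved and 29 reversed, and of 341 list medians 321 were alike, 9 moved and 11 reversed. Itga1 stayed higher in KD in 17 of 17 alternatives (1.69 to 3.14) and Vegfa lower in 17 of 17 (-2.95 to -1.29). Of 116 differences in shares of cells, 15 moved and 0 reversed. At 1000 UMIs in place of 1500, the intervals of Klrc1, Vegfa, Top2a, Stmn1, Irf8 and several genes whose shares are not printed came to hold 0. Except where the alternative itself removes genes or cells, the cause was not tested. The settings chosen after seeing the data were those on mixed cells, the 3 deepest members and members with or without Eomes. No paired analysis was possible because each group had 1 library, which also left no replicate to leave out. Genes with at most 3 UMIs in both libraries under an alternative were not recomputed.

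The counts of genes at least 2-fold higher and lower in KD, 81 and 96, became 602 and 595 at 10 UMIs, 12 and 10 at 200 UMIs, 21 and 31 in thinned members, and 35 and 63 in members with 0 UMIs of C1q, Lyz2 and S100a8/9, which left 48 Ctrl and 28 KD cells. The count higher was 37 with at least 3 NK genes, 37 with an Eomes UMI, 29 with the rule applied after thinning, 50 without likely doublets and 42 without mixed cells, and the count lower was 54 without an Eomes UMI. The difference in NK share was 0.651 points among lymphocytes and -0.214 points with 0 UMIs of C1q, Lyz2 and S100a8/9.

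The residency median of 1.15 was -0.090 in members with 0 UMIs of C1q, Lyz2 and S100a8/9, -0.050 in thinned members, 0.089 at 200 UMIs, 0.20 with at least 3 NK genes, 0.38 with an Eomes UMI, 0.30 with the rule after thinning and 0.41 without cycling members. With 0 UMIs of C1q, Lyz2 and S100a8/9 the medians were also -0.25 for the NK core, -0.31 for cytokines, -0.39 for inhibitory receptors, -0.63 for SLAM genes and 1.63 for glycolysis, and the ratios were -0.020 for Maf, -0.41 for Klrc1, 0.30 for Egr1, 1.90 for Lmna, 2.29 for Id3, 5.39 for Mt2 and 5.60 for Ccl2. Without an Eomes UMI the medians were -0.040 for inhibitory receptors, 0.21 for glycolysis and 1.63 for the cell cycle, and the ratios were 0.014 for Hspb1, 0.28 for Kdm6b, 0.54 for Id3, 0.83 for Egr1, 1.19 for Gbp2 and 4.68 for Ccl2.

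Without cycling members the cell cycle median was -0.45 by construction, with ratios of -0.25 for Stmn1, -1.48 for Pclaf and -4.26 for Birc5, and glycolysis had 0.35, Ccl2 0.14, Hspb1 0.21, Lmna 0.41, Id3 0.54 and Mt2 3.81. The cell cycle median was 1.39 in members with an Ncr1 or Klrb1c UMI. Rora was -1.05 and Gzmc 2.41 with at least 3 NK genes, and -0.36 and 2.84 with an Eomes UMI. Gzmk was -0.29 with the rule after thinning, Hspb1 0.22 in thinned members, and Hspb1 0.028 and Id3 0.092 without mixed cells.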
